A study of Gallus gallus with 403 samples.

Results

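The SLC25 family of mitochondrial solute carriers was read as 33 of the 13009 genes that are named by a single symbol on the Affymetrix Chicken Genome array. Members were all genes whose only platform symbol is SLC25A followed by a number. Relatives of the family under other symbols, such as UCP3, MTCH1 and MTCH2, were not counted as members. They stand below among the other mitochondrial transport genes. The 33 members had 71 of the 27168 probe sets with 1 symbol. Where a gene had several, the one that was brightest on average over all arrays stood for it. Of the 33 members 23 had more than 1 probe set, and in 8 of these the chosen one correlated below 0 with at least 1 other over the groups. All 33 were matched by gene number to the RefSeq gene table of the chicken assembly GRCg7b, under the same symbols. In that assembly SLC25A29 lies next to SLC25A47, and SLC25A5 next to SLC25A43. Whether probe sets of related carriers bind each other's transcripts was not tested.

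SLC25 proteins are membrane exchangers, most of them in the inner mitochondrial membrane, that pass nucleotides, phosphate, carboxylates, amino acids, cofactors and metal ions between the cytosol and the mitochondrial matrix. ATP made in the matrix leaves it, and the substrates of respiration, urea synthesis, heme synthesis and lipid synthesis enter or leave it, through members of this family. Several transport steps are shared by close relatives that mammals use in different tissues. The roles named below are those known from mammals.

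Each array held RNA of 1 tissue of the chicken, Gallus gallus, at 1 labelled age, and the arrays cover 20 tissues in 94 groups of 4 arrays, 5 of 3 and 2 of 6. Skeletal muscle was represented by gastrocnemius at days 1, 7, 14, 21 and 28 and pectoralis at days 0, 1, 7, 14, 21 and 28. Liver was labelled with days 0, 1, 3, 7, 9, 49 and 56, and abdominal fat with days 1, 7, 10, 14, 21, 28, 35, 42 and 49. Nervous tissue comprised brain (days 0, 1, 7, 8, 9, 14, 21, 28, 35, 42 and 49), retina (days 1, 7, 9, 14, 21, 28 and 35), pineal gland (days 1, 7, 14, 21 and 28) and cerebral cortex (day 7). Gut samples were duodenum (days 0, 1, 7, 14, 21, 28, 35, 42 and 49), whole intestine (days 0, 1, 3, 7, 14, 21 and 28), jejunum (days 1, 7, 14, 21, 28, 35 and 42), ileum (day 28) and cecal epithelia (day 14). The others were lung (days 1, 7, 14, 21, 28, 35 and 42), spleen and the growth plate of the tibiotarsus (both days 1, 7, 14, 21 and 28), testes (week 17), ovary (week 17 and year 2), ovarian cortex (week 16) and oocytes (week 21). The labels give tissue, age and sex and name no genotype or treatment. Male and female labels were equally frequent in 96 groups, and 5 groups carried 1 sex, among them an ovary group labelled male. Of the 4 oocytes arrays 2 were labelled male. The labels do not say that replicate arrays came from separate birds, so p-values measure only the spread between these arrays, which may be technical.

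The arrays carry 2 runs of sample numbers, 251 arrays in 63 groups and 152 arrays in 38 groups, and ages were compared only within a run. The median of an array was 6.05 to 6.47 in the first run, and 5.99 to 6.18 in the second. The median SD between the arrays of a group was 0.09 to 0.21 in 45 groups and 0.38 to 0.54 in the other 56. All values are log2 intensities as deposited, on which a difference of 1 is 2-fold. The number of arrays limits the precision, and levels are compared between samples of 1 gene, never between genes.

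Several groups went against their labels. In the 3 liver arrays of day 56 the 6 liver markers had a median of 0.45 above their tissue median, against 7.17 to 7.68 in the other liver groups, and the respiratory chain genes lay at −4.41. The 4 pectoralis arrays of day 21 of the first run and 6 pectoralis arrays with 2 different ages in their labels had skeletal muscle markers at 4.52 and 5.05, against 7.75 to 8.16 in the other pectoralis groups. Their respiratory chain genes lay at −2.17 and −1.80. In the other 98 groups the respiratory chain lay between −0.92 and 1.15. Tissue levels are over all groups, and where a level of liver or pectoralis is named, its value without these 3 groups of 13 arrays is added. In the second run, gastrocnemius at days 21 and 28 and pectoralis at days 21 and 28 matched array by array. Deviations of matched arrays correlated at 0.69 to 0.84, against at most −0.17 for the others, so tissue and age cannot be told apart there. Brain came in 2 kinds. At day 21 of the first run and days 1, 7 and 14 of the second, the brain neurons list lay at 2.66 to 3.05, against 5.61 to 6.11 in the other 8 brain groups. Abdominal fat had adipocytes markers at 4.49 to 6.01 in the groups from day 14 on, against −0.50 to 0.27 at days 1, 7 and 10, near the tissue median of these markers. In oocytes the 5 ovary and oocyte markers had a median of 0.16, with single genes from −0.60 to 8.22. The same median was 2.78 in ovary, 0.75 in ovarian cortex and 1.13 in spleen. Levels in oocytes are therefore those of arrays labelled so.

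How widely each carrier was expressed was described first, from the level in 20 tissues (the mean of a tissue's group means). A carrier was called restricted when its highest tissue lay at least 2 above the median of the tissues, general when every tissue lay within 1.5 of that median, and graded otherwise. By this rule 8 members were restricted (24.2%, against 33.3% of all genes), 15 were general (45.5%, against 47.3%) and 10 were graded (30.3%, against 19.3%). The shares of restricted and general members thus lay near or below those of all genes. Without the 3 groups that stand apart the counts were the same, and the highest tissue was the same for 27 of the 33. These are bulk samples, in which fewer cells of a type and less RNA per cell cannot be told apart.

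**Figure D1:**
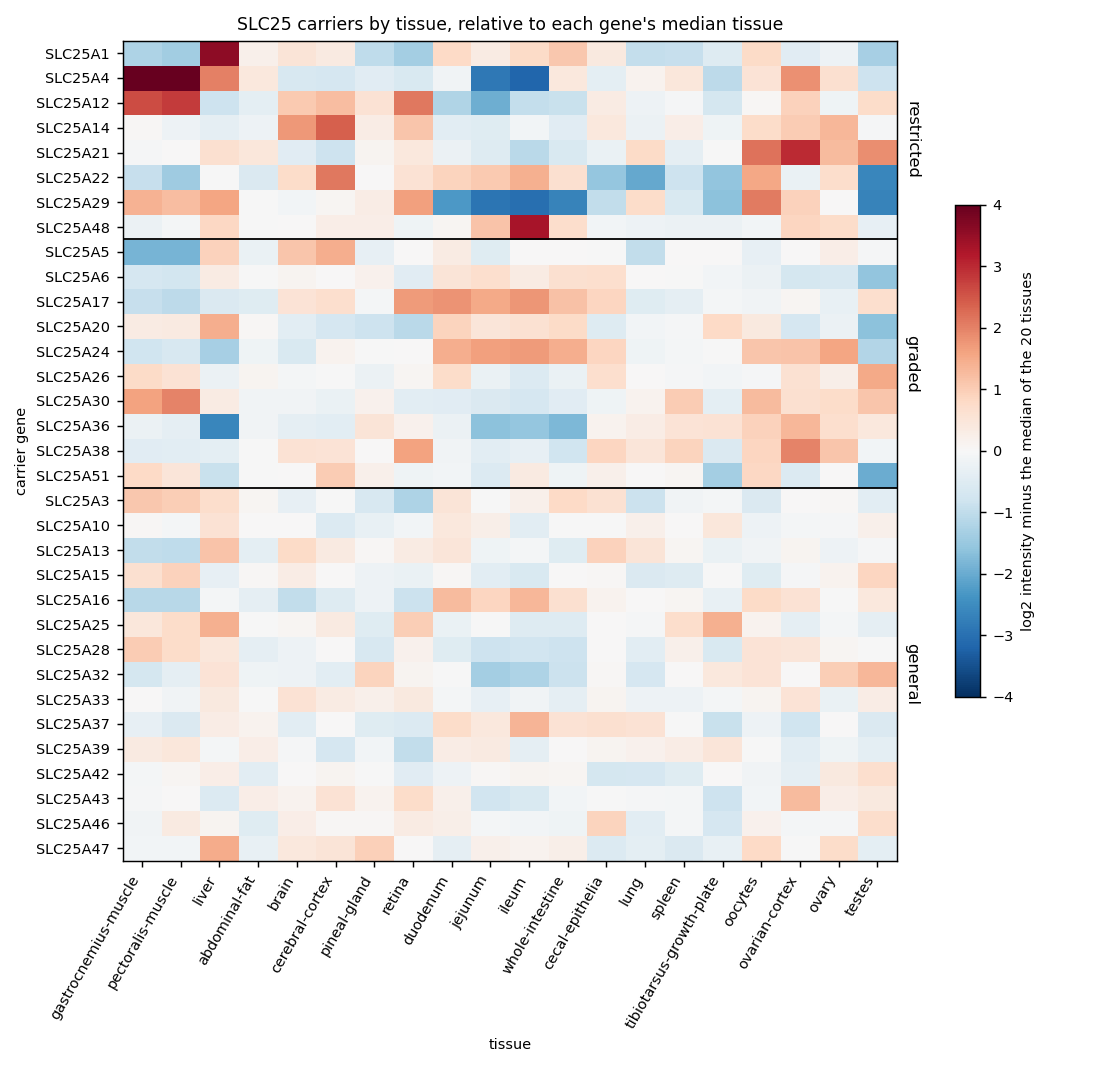
Heat map of the 33 carriers (rows, in the classes restricted, graded and general) in 20 tissues (columns). Colour gives the log2 intensity minus the gene's median over the tissues, without the 3 groups that stand apart, and the scale ends at 4 in both directions. SLC25A4 in both muscles, SLC25A1 in liver and SLC25A48 in ileum are the darkest red cells, and SLC25A4 and SLC25A29 are lowest in jejunum and ileum.

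The ADP/ATP carriers, which exchange matrix ATP for cytosolic ADP, were split between tissues. SLC25A4, the form of mammalian heart and skeletal muscle, had its highest level in gastrocnemius at 13.03, followed by pectoralis at 11.37 with all groups and 13.12 without those that stand apart. Its lowest levels were 5.12 in ileum and 5.44 in jejunum. SLC25A5, another ADP/ATP carrier, ran the other way, with 12.35 in cerebral cortex, brain next and its lowest levels in pectoralis at 8.62 (9.02 without the groups that stand apart) and gastrocnemius at 9.02. Its highest group mean was 12.66, in brain at day 8. SLC25A6, a further ADP/ATP carrier, reached 13.46 in jejunum and was lowest in pectoralis at 11.03 with all groups. Without those that stand apart pectoralis was at 12.04, and testes had the lowest level at 11.19. Over the 20 tissues SLC25A4 correlated at −0.56 with SLC25A5 and at −0.54 with SLC25A6 (−0.52 and −0.42 without the groups that stand apart), while SLC25A5 and SLC25A6 correlated at 0.42 (0.30). The points share arrays, and these correlations are descriptions without a test.

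SLC25A4 showed how far the groups that stand apart move a muscle level. In pectoralis of day 7 the 4 arrays had 12.95, 13.85, 14.5 and 13.42, and at day 0 they had 13.18, 13.3, 12.68 and 13.21. The 4 arrays of day 21 of the first run had 5.33, 6.55, 8.21 and 6.88, and the 6 arrays with 2 labelled ages had between 4.81 and 6.47. No array of these 2 groups reached the lowest of the other pectoralis arrays. In gastrocnemius all 20 arrays lay between 12.07 and 13.87.

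The carriers of aspartate and glutamate were the second group with sharp tissue differences. SLC25A12 and SLC25A13 are the calcium-regulated aspartate/glutamate carriers of the malate-aspartate shuttle. SLC25A12 was restricted, with 11.16 in gastrocnemius, 10.64 in retina and 10.30 in pectoralis (11.35 without the groups that stand apart), and 6.59 in jejunum. SLC25A13 was general, highest in cecal epithelia at 10.42 and lowest in pectoralis at 8.12 with all groups. Without those that stand apart liver was highest at 10.62, ahead of cecal epithelia, and pectoralis had 8.47. Over the tissues the pair correlated at −0.20 (−0.28 without those groups). SLC25A22, a glutamate carrier, was restricted by the rule but high in several tissues, with 12.72 in cerebral cortex, 12.17 in oocytes and 12.05 in ileum. It was lowest in testes at 8.01 and lung at 8.57. In cerebral cortex its 4 arrays had 12.73, 12.9, 12.74 and 12.52.

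SLC25A1, the carrier that exports citrate for fatty acid and sterol synthesis, was restricted, with liver highest at 12.11 over all liver groups, 12.92 without day 56, and 10.43 in whole intestine as the next tissue. Its 24 liver arrays from day 0 to day 49 lay between 12.17 and 13.64, and the 3 arrays of day 56 had 7.15, 7.16 and 7.3. Every liver array up to day 49 was thus above every array of whole intestine, the highest of which had 11.32. SLC25A29, a carrier of basic amino acids, was highest in oocytes at 10.28 and retina at 9.82, and lowest in ileum at 5.16 and jejunum at 5.26. SLC25A48, for which choline transport has been described, was highest in ileum, where 4 arrays had 9.27, 9.56, 8.88 and 9.48. Jejunum was next at 7.15, but there it differed between arrays of 1 group, with 7.08, 9.26, 9.1 and 6.95 at day 28.

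SLC25A14, one of the uncoupling-protein-like carriers, was highest in cerebral cortex at 10.45 and brain at 9.77. The cortex level is that of 1 group and the brain level averages 12. SLC25A14 had its highest group mean, 10.53, in brain at day 7 of the second run. Its relative SLC25A30 was graded, with 7.69 in pectoralis (7.87 without the groups that stand apart) and 7.48 in gastrocnemius, and the pair correlated at −0.04. SLC25A21, the oxoadipate carrier of lysine and tryptophan breakdown, was highest in gonads, with 8.81 in ovarian cortex, 8.00 in oocytes and 7.69 in testes. The 3 ovarian cortex arrays had 9.08, 7.71 and 9.63, so the first 3 tissues overlapped. Without the 4 gonadal tissues SLC25A21 was general and SLC25A29 graded, while the other 6 kept the class restricted. The general SLC25A16 and SLC25A28 were then graded, and the graded SLC25A20, SLC25A26 and SLC25A51 were general. When the probe sets of a gene were averaged SLC25A14 was graded, and the graded SLC25A20, SLC25A26, SLC25A36 and SLC25A38 were general. The highest tissue was then the same for 23 members. With groups of the first run alone SLC25A30 was restricted as well. The general SLC25A13, SLC25A25 and SLC25A28 were then graded, and the graded SLC25A26 was general.

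**Figure D2:**
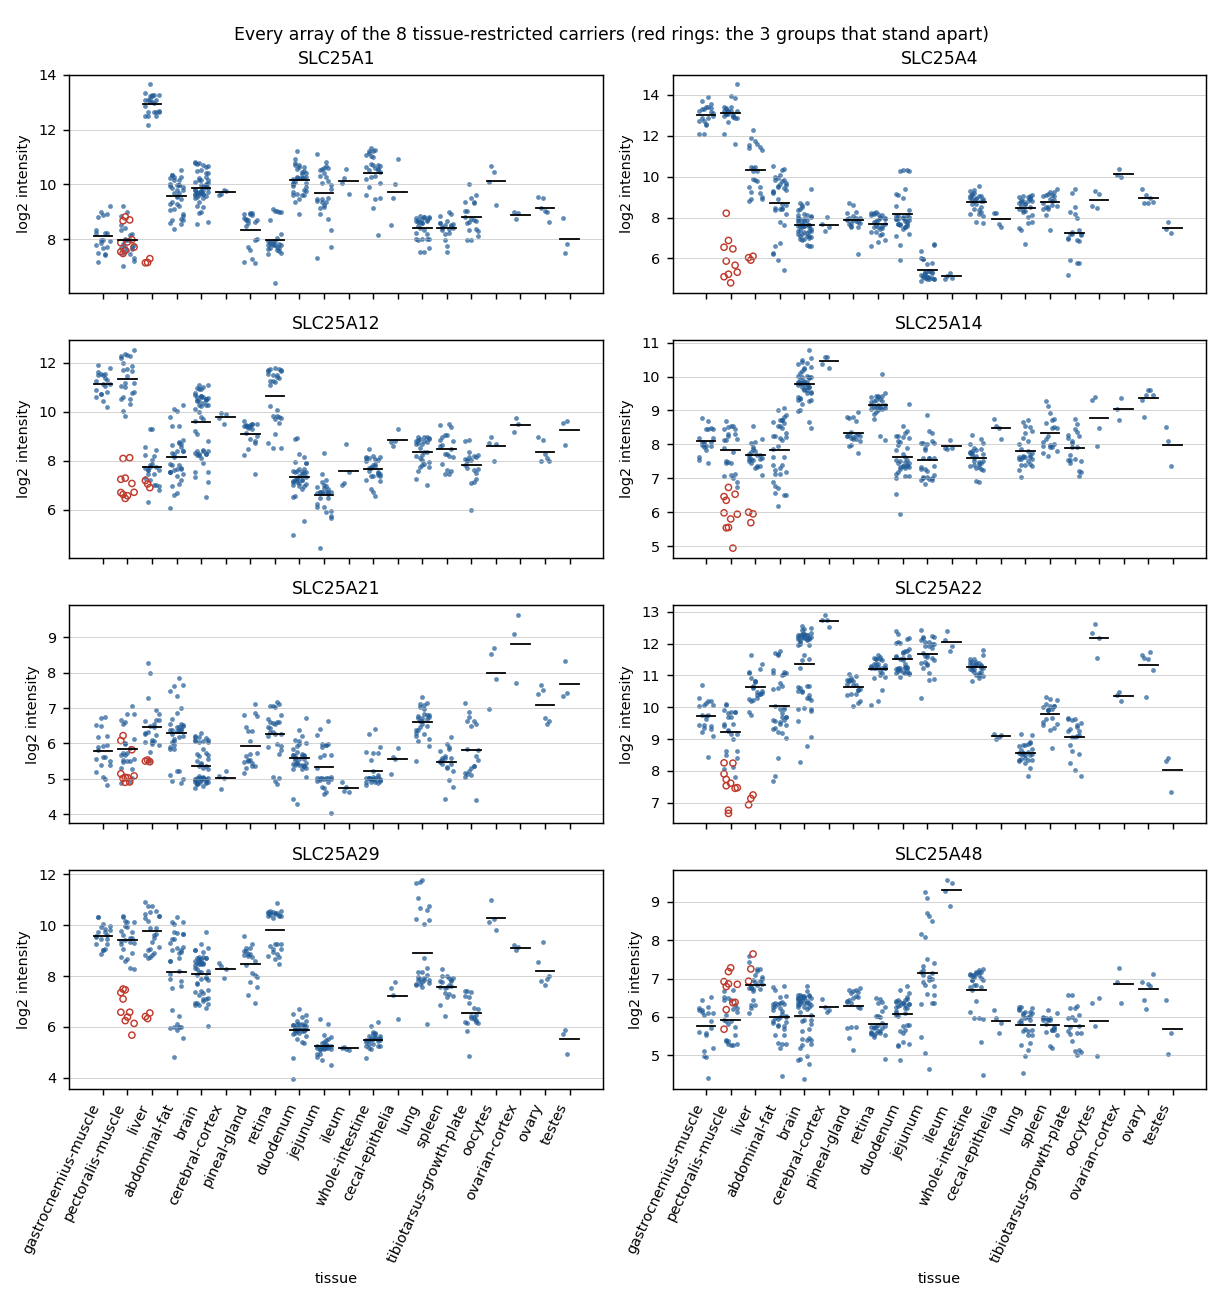
Log2 intensity of the 8 restricted carriers on every array (points) by tissue, with the mean of the group means (black bar) without the groups that stand apart, whose arrays are red rings. SLC25A1 in liver sits above all other tissues apart from the red rings, SLC25A4 in the muscles overlaps with liver at day 0, and SLC25A12 in brain and retina and SLC25A29 in lung spread over several units within 1 tissue.

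Among the 10 graded carriers, SLC25A17, which carries cofactors in the peroxisomal membrane, was highest in duodenum at 10.07 and lowest in pectoralis at 6.74 (7.23 without the groups that stand apart). SLC25A24, an ATP-Mg/phosphate carrier, reached 11.60 in ileum and was lowest in liver at 8.43 (8.57 without day 56), whereas its relative SLC25A25 was general with 7.79 in the growth plate and 5.84 in ileum. The pair correlated at −0.51 over the tissues. SLC25A20, the carnitine/acylcarnitine carrier of fatty acid oxidation, had 10.22 in duodenum, 10.19 in liver and 7.67 in testes, and without day 56 liver was highest at 10.76. SLC25A36, a pyrimidine nucleotide carrier, had 11.01 in ovarian cortex and 6.97 in liver (7.09 without day 56). SLC25A38, a glycine carrier of heme synthesis, was highest in ovarian cortex at 8.90 and lowest in whole intestine at 6.13. Its other probe set correlated at −0.6 with the chosen one over the groups. The NAD carrier SLC25A51 had 9.94 in cerebral cortex and 6.96 in testes, and SLC25A26, the carrier of S-adenosylmethionine, was highest in testes at 7.82.

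The general carriers included SLC25A3, which brings in the phosphate for ATP synthesis, with 12.94 in gastrocnemius and 10.63 in retina. It followed the respiratory chain genes more closely than any other member over the 20 tissues (r = 0.71, and 0.77 without the groups that stand apart). The next members were the ornithine carrier SLC25A15 at 0.51 and SLC25A4 at 0.42 (0.60 and 0.61 without those groups), and SLC25A38 had the lowest correlation at −0.36 (−0.45). The mitoferrins SLC25A28 and SLC25A37, which bring iron to the matrix, were both general. SLC25A28 was highest in pectoralis at 9.19 with all groups, and without those that stand apart gastrocnemius was highest at 8.92 and pectoralis had 8.63. SLC25A37 was highest in ileum at 9.51, and the pair correlated at −0.46 with and without those groups. SLC25A32, the folate carrier, was highest in testes at 9.84. SLC25A47, known as a liver carrier in mammals, was general by the rule, with its highest level of 6.94 in liver (7.06 without day 56) and its lowest in spleen. Liver lay 1.36 above the tissue median of 5.58 (1.48 without day 56), near the limit of 1.5, and had a mean of 8.18 at day 1. That tissue median lay below every array median, so dim signal and broad expression cannot be told apart. SLC25A39, a glutathione carrier, spanned 6.45 in retina to 7.91 in the growth plate. The other general members were SLC25A10, SLC25A13, SLC25A16, SLC25A33, SLC25A42, SLC25A43 and SLC25A46, of which SLC25A10, SLC25A33 and SLC25A42 stayed at or below 6.52 in every tissue. The tissue medians of SLC25A10 (5.29), SLC25A33 (5.96) and SLC25A42 (5.82) also lay below every array median. For these members too, dim signal and broad expression cannot be told apart.

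Which carriers set an organ apart was tested at day 7 on 52 arrays in 10 organ classes. Limma contrasted each class, taken as the average of its tissues, with the average of the remaining 9 over 12970 genes, and all 33 members were tested. A member was called at a Benjamini-Hochberg adjusted p under 0.05 over all genes and a log2 difference of at least 1. Abdominal fat, retina, spleen, growth plate and jejunum came from the second run and the other tissues from the first. For fat, retina, spleen and growth plate, run and organ cannot be told apart. The fit pools groups of unlike spread, with a median SD of 0.09 in pineal gland and 0.53 in jejunum. Of the 33 members 23 were called in at least 1 class, a count without the share of all genes that does not set the members apart.

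Skeletal muscle (gastrocnemius and pectoralis, 8 arrays) had the largest difference of a member among the 10 classes. Of 33 members 5 were higher and 3 lower, against 7.73% and 6.18% of all genes. SLC25A4 had 12.84, 13.19 and 14.50 as lowest, median and highest value in muscle, against 4.98, 8.24 and 10.53 in 44 other arrays, without overlap, and its difference was 5.11 ± 0.17 (SE, limma adjusted p = 1.12e-37). SLC25A12 had 10.19, 11.82 and 12.54 in muscle against 5.68, 7.92 and 11.10 in the others, a difference of 3.32 with overlap. SLC25A30 followed at 2.69, SLC25A3 at 1.11 and SLC25A29 at 1.07. The lower members were SLC25A5 at −1.95, SLC25A22 at −1.50 and SLC25A13 at −1.45. Of 42 respiratory chain genes 25 were higher and none lower in muscle, and of 32 other mitochondrial transport genes 6 were higher and 1 lower, led by the uncoupling protein UCP3 at 4.64. With quantile normalization or each array centred on its median the split of members was 4 higher and 4 lower, and SLC25A29 dropped out without replicate 4 (0.94).

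Gastrocnemius against pectoralis at day 7 differed in 4 members, 1 higher and 3 lower, against 5.6% and 4.9% of all genes. SLC25A30 had 7.13, 6.97, 7.71 and 7.26 in gastrocnemius and 9.95, 10.2, 10.2 and 9.26 in pectoralis, a difference of −2.63 ± 0.32 (limma adjusted p = 1.43e-09). SLC25A22 had 10.19, 10.2, 10.07 and 9.45 in gastrocnemius and 8.13, 7.81, 8.39 and 8.05 in pectoralis, a difference of 1.88. Neither gene overlapped between the muscles. SLC25A46, an outer-membrane member tied to mitochondrial shape, differed by −1.29 and SLC25A12 by −1.18, also without overlap. The adjusted p of SLC25A12 was 0.083 without replicate 2 and 0.0872 without replicate 4, and that of SLC25A46 was 0.0776 without replicate 2. Liver markers were higher in gastrocnemius for 6 of 6 genes, with array means of 10.24 to 11.03 in gastrocnemius and 6.47 to 7.28 in pectoralis, and their part in these differences was not tested.

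In liver 5 members were higher and 2 lower, against 10.1% and 7.26% of all genes. SLC25A1 had 12.5, 12.63, 12.5 and 12.17 in liver against 6.42, 8.81 and 10.78 as lowest, median and highest of 48 other arrays, a difference of 3.62 ± 0.25 (limma adjusted p = 2.13e-20) without overlap. SLC25A29 had 9.87, 10.34, 10.9 and 10.17 in liver and 4.80, 7.89 and 11.67 in the others, a difference of 2.44 with overlap. SLC25A25 was higher by 2.18, SLC25A37 by 1.37 and SLC25A20 by 1.26. Lower were SLC25A36 at −1.59 and SLC25A12 at −1.56. Of the other mitochondrial transport genes 3 were higher and 2 lower, led by the sodium/calcium exchanger SLC8B1 at 2.37 and the pyruvate carrier subunit MPC2 at 2.28. With all probe sets of a gene averaged, SLC25A20, SLC25A25, SLC25A36 and SLC25A37 fell short of the threshold, at 0.58, 0.86, −0.72 and 0.25.

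Brain had 6 higher members and none lower, against 12.7% and 8.24% of all genes. SLC25A12 had 10.65, 10.38, 10.3 and 11.1 in brain against 5.68, 8.17 and 12.54 in the others, a difference of 2.15 ± 0.25 (limma adjusted p = 4.4e-11). SLC25A22 had 12.18, 12.12, 11.96 and 12.5 in brain against 7.81, 10.79 and 12.41, a difference of 2.00. Both overlapped with the other arrays. SLC25A5 (1.65), SLC25A46 (1.28), SLC25A13 (1.26) and SLC25A14 (1.19) were the others. With the 4 brain arrays of day 7 of the second run in their place, SLC25A12 was lower in brain at −1.08 (limma adjusted p = 0.00034) and SLC25A22 lay at −0.07. SLC25A5 (0.69), SLC25A13 (0.88) and SLC25A46 (0.60) were then no longer called, and the split of members was 3 higher and 5 lower. In those 4 arrays SLC25A12 had 7.92, 6.52, 7.53 and 7.54. The neuron markers differed between the 2 sets as given above, and their part in the difference was not tested.

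Retina had 3 higher and 4 lower members, against 10.4% and 15.2% of all genes. SLC25A37 had 5.08, 6.16, 4.96 and 5.46 in retina against 5.51, 8.40 and 9.79 in the others, a difference of −2.81 ± 0.23 (limma adjusted p = 9.43e-17). SLC25A20 had 7.16, 7.81, 8.19 and 7.98 in retina against 8.28, 9.55 and 10.63 in the others, a difference of −1.62. Retina was thus below every other array for the carnitine carrier, and overlapped for the mitoferrin. SLC25A1 was lower by 1.78 and SLC25A4 by 1.59 on the log2 scale. Higher were SLC25A46 at 1.69, SLC25A17 at 1.67 and SLC25A14 at 1.15. SLC25A14 lay at 0.88 without replicate 3. With groups of the first run only, which puts retina at day 9 in place of day 7, SLC25A37 lay at −0.98, SLC25A1 at −0.58 and SLC25A46 at 0.66, none of them called. With probe sets averaged SLC25A20 lay at −0.88, SLC25A37 at −0.55, SLC25A4 at −0.52 and SLC25A14 at 0.52, also not called.

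Pineal gland had 3 higher members and 1 lower, against 10% and 7.17% of all genes. SLC25A47 had 7.06, 6.82, 7.38 and 7.12 in pineal gland against 4.43, 5.60 and 7.08 in the others, a difference of 1.5 ± 0.24 (limma adjusted p = 3.84e-07). SLC25A32 was higher by 1.09 and SLC25A29 by 1.03, and SLC25A25 was lower at −1.15. The adjusted p of SLC25A29 was 0.077 without replicate 1 and 0.0672 without replicate 4.

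Intestine (duodenum, jejunum and whole intestine, 12 arrays) had 4 higher and 5 lower members, against 6.48% and 11.1% of all genes. SLC25A29 had 4.80, 5.52 and 5.87 as lowest, median and highest value in intestine, against 4.85, 8.62 and 11.67 in 40 other arrays, a difference of −2.98 ± 0.22 (limma adjusted p = 1.44e-19). SLC25A24 had 10.89, 11.46 and 12.17 in intestine against 8.68, 9.72 and 11.16, a difference of 1.71. The groups overlapped for both. SLC25A17 (1.35), SLC25A22 (1.24) and SLC25A16 (1.11), a carrier linked to coenzyme A, were also higher. SLC25A4 (−1.88), SLC25A12 (−1.60), SLC25A36 (−1.17) and SLC25A14 (−1.10) were also lower. Under quantile normalization the split was 6 higher and 3 lower, and SLC25A14 (−0.87) and SLC25A36 (−0.83) were no longer called. With groups of the first run only, which leaves jejunum out, SLC25A4 (−0.94) and SLC25A36 (−0.98) were not called. With probe sets averaged SLC25A16 (0.85), SLC25A14 (−0.83), SLC25A4 (−0.67) and SLC25A36 (−0.29) fell short of the threshold.

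In lung 1 member was higher and 3 lower, against 11.9% and 6.7% of all genes. SLC25A29, higher by 1.70 ± 0.34 (limma adjusted p = 3.97e-05), had 8.05, 10.77, 11.67 and 8.15, so that 2 lung arrays were far above the other 2, and without replicate 3 the difference was 1.04. SLC25A22 had 8.91, 8.33, 8.79 and 8.54 in lung against 7.81, 10.95 and 12.50 in the others, a difference of −1.94. SLC25A14 (−1.01) and SLC25A5 (−1.0) stood at the threshold. SLC25A14 fell under it without replicate 2 (−0.98) or 3 (−0.97), and SLC25A5 without replicate 1 (−0.89). Of the 42 respiratory chain genes 8 were lower in lung.

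In the growth plate 1 member was higher and 6 were lower, against 7.69% and 16.7% of all genes. SLC25A29 had 4.85, 7.37, 6.41 and 6.21 in the growth plate against a median of 8.30 in the others, a difference of −2.13 ± 0.34 (limma adjusted p = 3.74e-07). SLC25A12 (−1.71), SLC25A37 (−1.45), SLC25A51 (−1.38), SLC25A4 (−1.34) and SLC25A22 (−1.16) were lower and SLC25A39 was higher (1.09). SLC25A51 lay at −0.97 without replicate 1, and SLC25A39 at 0.98 without replicate 1 and 0.99 without replicate 4. With groups of the first run only, which puts the growth plate at day 1 in place of day 7, SLC25A12 (−0.92), SLC25A37 (−0.56), SLC25A51 (−0.52) and SLC25A39 (0.17) were no longer called. With probe sets averaged SLC25A22 lay at −0.81, SLC25A4 at −0.40, SLC25A39 at 0.42 and SLC25A37 at 0.01. Of the 42 respiratory chain genes 10 were lower there.

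Abdominal fat at day 7 had 3 higher and 3 lower members, against 11.5% and 9.77% of all genes. SLC25A29 had 5.99, 7.6, 5.57 and 7.87 in fat, a difference of −1.52 ± 0.34 (limma adjusted p = 0.000197), and −1.0 without replicate 3. SLC25A12 (−1.50) and SLC25A46 (−1.01) were lower, and SLC25A4 (1.33), SLC25A21 (1.32) and SLC25A37 (1.03) were higher. SLC25A37 lay at 0.86 without replicate 2 and SLC25A46 at −0.85 without replicate 4. Centred on array medians the split was 4 higher and 2 lower. With groups of the first run only, which puts fat at day 10 in place of day 7, SLC25A4 (0.88), SLC25A21 (0.58) and SLC25A46 (−0.88) were no longer called. Spleen had no higher and 2 lower members, SLC25A1 at −1.16 and SLC25A22 at −1.0, against 11% and 9.48% of all genes. SLC25A22 lay at −0.92 and −0.75 there without replicates 2 and 3, and at −0.92 with groups of the first run only (spleen at day 21).

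Changes with age were tested in 18 comparisons of a later with an earlier age of 1 tissue in 1 run, each in a fit of all its ages. Members were called in 11 of them, and 27 of the 33 members in at least 1. These counts over several comparisons, and those that follow, stand without the share of all genes and do not set the members apart. SLC25A3 and SLC25A32 were each called lower at the later age in 6 comparisons and higher in none. SLC25A4 was lower in 5 and higher in none. SLC25A29 was higher in 4 and lower in 1. Several of these comparisons share no arrays, but their tissues and ages differ. SLC25A28, SLC25A33, SLC25A42, SLC25A43 and SLC25A48 were called in no age comparison and in no organ class.

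The organ, muscle and age comparisons together held 140 calls of single members, and the choice of probe set bore on many of them. With all probe sets of a gene averaged, 76 calls were kept and 64 were not. The 10 members with 1 probe set could not change in this check, and their calls stand among those kept. SLC25A29 (12 calls), SLC25A12 (11) and SLC25A5 (7) are among these members. SLC25A17, with 2 probe sets, kept all 5 of its calls. SLC25A4 kept 1 of its 10 calls, that in muscle at 2.40, SLC25A3 kept 1 of 7, and SLC25A32 kept none of 7. None was kept for SLC25A6, SLC25A20, SLC25A25, SLC25A36, SLC25A38 and SLC25A39.

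**Figure D3:**
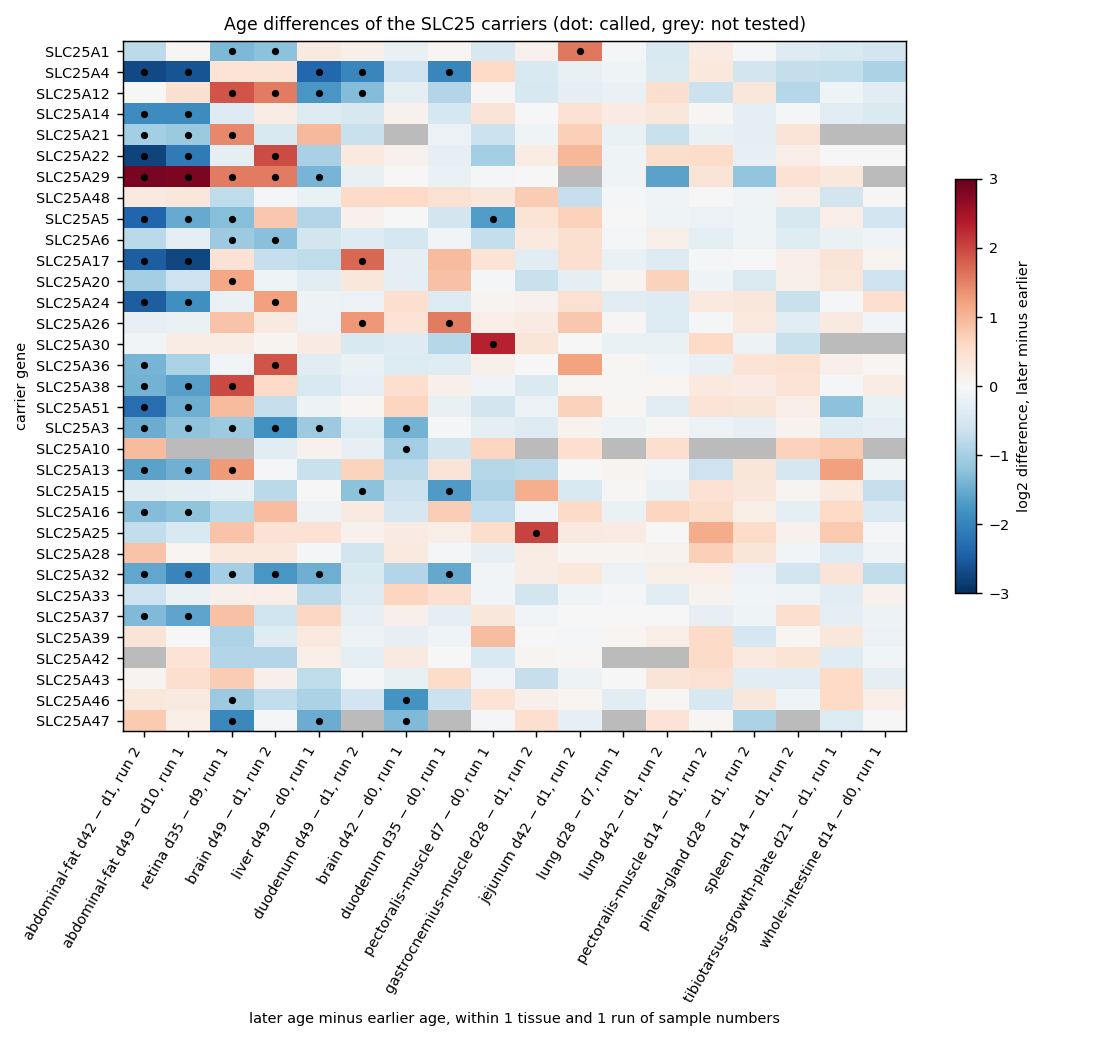
Log2 difference of the 33 carriers (rows) between a later and an earlier age in 18 comparisons (columns, with the most called members at the left). Dots mark called members and grey cells members left out as dim. Both fat columns are blue for 14 and 15 called members and red for SLC25A29, retina and brain columns hold both colours, and the 7 columns at the right have no dot.

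Abdominal fat had the most called members of the 18 comparisons. Between day 49 and day 10 of the first run 1 of 32 tested members was higher and 14 were lower, against 5.44% and 25% of all genes. Between day 42 and day 1 of the second run 1 of 32 was higher and 15 were lower, against 7.2% and 29.4% of all genes. The 2 comparisons share no arrays. All 14 members lower in the first were also lower in the second, where they made up 93.3% of those called. Of all genes lower in the first, 89.4% were lower in the second, where they made up 74.7%. The median difference of the members was −0.53 and −0.92, against −0.10 and −0.27 over all genes tested.

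SLC25A29, the carrier of basic amino acids, was the 1 member that was higher in later fat. It had 9.04, 9.14, 8.59 and 9.04 at day 49 and 5.97, 6.67, 6.0 and 5.9 at day 10, a difference of 2.82 ± 0.36 (limma adjusted p = 6.24e-06). In the second run it had 8.08, 7.54, 10.05 and 9.1 at day 42 and 4.83, 6.13, 6.43 and 6.01 at day 1, a difference of 2.84 ± 0.49 (adjusted p = 1.13e-05). The ages did not overlap in either run. Its means were 6.13, 8.87, 9.20 and 8.95 at days 10, 14, 21 and 49, and 5.85, 6.76, 9.53, 9.57 and 8.69 at days 1, 7, 28, 35 and 42. In both runs the highest means thus came after day 10.

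SLC25A17, the peroxisomal cofactor carrier, had 6.12, 5.83, 5.92 and 5.99 at day 49 and 8.68, 8.5, 8.8 and 8.78 at day 10, a difference of −2.73 ± 0.13 (limma adjusted p = 2.16e-10). At day 42 it had 5.83, 6.62, 6.71 and 5.95, against 8.67, 8.72, 8.86 and 8.77 at day 1, a difference of −2.48. No array of the later age reached the earlier one. SLC25A22, the glutamate carrier, had 9.6, 9.02, 9.59 and 9.57 at day 49 and 11.18, 11.69, 11.65 and 11.76 at day 10 (−2.12), and 7.69, 7.85, 8.4 and 9.52 at day 42 against 11.68, 10.76, 11.01 and 11.1 at day 1 (−2.77). It too did not overlap.

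SLC25A4, the muscle ADP/ATP carrier, differed by −2.58 in the first run and −2.71 in the second, with overlap in both. Its arrays had 5.46, 9.59, 6.29 and 6.63 at day 49 against 9.22, 9.85, 9.55 and 9.65 at day 10. At day 42 they had 6.21, 9.98, 5.91 and 7.77, against 9.91, 10.06, 10.34 and 10.38 at day 1. In each later group the second array was as high as the earlier age. On the same arrays the skeletal muscle markers had a mean of 11.49 (5.50 to 6.08 on the other 3 arrays of day 49) and 9.30 (5.12 to 6.07 on those of day 42), while at days 10 and 1 no array exceeded 5.50. Without replicate 2 the differences were −3.35 and −3.58. With the probe sets of SLC25A4 averaged they were −0.79 and −0.80, and no longer called.

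Another 11 members were lower in both runs. In the order of the first run they were the folate carrier SLC25A32 (−1.98 and −1.57), SLC25A14 (−1.88 in both), SLC25A24 (−1.85 and −2.48), SLC25A38 (−1.62 and −1.42), SLC25A37 (−1.59 and −1.33) and SLC25A5 (−1.52 and −2.37). Between −1.47 and −1.11 in the first run lay SLC25A51, SLC25A13, SLC25A3, SLC25A16 and SLC25A21, which had −2.28, −1.60, −1.49, −1.30 and −1.03 in the second. SLC25A36 was called in the second run (−1.39) and lay at −0.96 in the first, with an adjusted p of 0.0169. Members that were not called in either run included SLC25A12, at 0.46 and 0.01, and SLC25A1, at 0.04 and −0.78. Calls that were lost without 1 replicate were SLC25A16 in the first run (limma adjusted p = 0.0592) and, in the second, SLC25A32 (0.0656) and SLC25A21 (0.0726 to 0.206). With probe sets averaged SLC25A32 lay at −0.70 and −0.39, SLC25A24 at −0.93 and −0.99 and SLC25A38 at −0.60 and −0.05. SLC25A13 then lay at −0.51 and −0.49 and SLC25A3 at −0.55 and −0.47, and none of these was called in either run. SLC25A14 (−0.79), SLC25A16 (−0.95), SLC25A36 (−0.24) and SLC25A37 (−0.83) lost their calls in the second run.

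Other groups of genes moved between the same ages. Of the 6 adipocytes markers all 6 were higher at the later age in both runs, with array means of 11.44 to 12.89 in the 6 groups from day 14 on and 6.62 to 7.76 at days 1, 7 and 10. Markers of red blood cells were higher for 2 of 3 genes in both, at 9.19 to 10.96 and 5.25 to 6.47 in the same sets of groups. Of the 42 respiratory chain genes 8 and 17 were lower and none was higher. The median of the respiratory chain list lay at −0.50 at day 49 and −0.92 at day 42. It lay at −0.05, 0.04, 0.25 and −0.22 at days 14, 21, 28 and 35, and at −0.06 to 0.01 at days 1, 7 and 10. Of the other mitochondrial transport genes 13 of 30 and 14 of 32 were lower and 1 was higher. The part of the change in cell types in the carrier differences was not tested. Quantile normalization, which moved the median of all genes to 0.04 and −0.02, left 2 higher and 8 lower members in the first run and 3 higher and 8 lower in the second. SLC25A3, SLC25A13, SLC25A16 and SLC25A37 lost their calls in both runs. SLC25A5 and SLC25A51 lost theirs in the first, and SLC25A21, SLC25A32 and SLC25A36 in the second. Over all genes quantile normalization called 1293 higher and 1836 lower in the first run, against 679 and 3114 with the values as deposited. In the second it called 1460 higher and 2046 lower, against 911 and 3727.

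**Figure D4:**
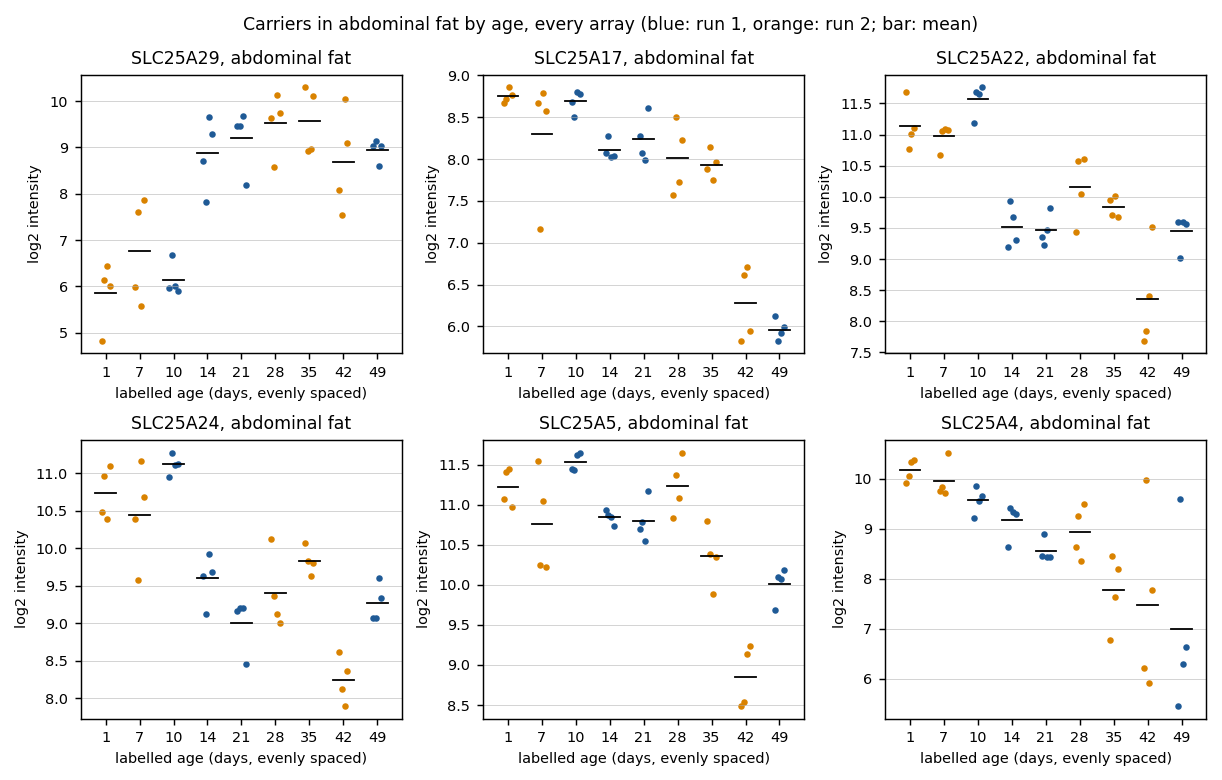
Log2 intensity of 6 carriers in abdominal fat on every array (points) by labelled age, with group means as bars and the runs in 2 colours. SLC25A29 lies between 4.83 and 7.87 at days 1, 7 and 10 and between 7.54 and 10.3 from day 14 on, SLC25A17 falls to 5.83 to 6.71 at days 42 and 49, and 1 array each at days 42 and 49 keeps SLC25A4 at 9.98 and 9.59.

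In retina 6 of 32 tested members were higher and 7 lower at day 35 than at day 9, against 17.3% and 13.8% of all genes. SLC25A38, the glycine carrier, had 9.63, 9.48, 9.53 and 9.37 at day 35 and 7.38, 7.41, 7.59 and 7.71 at day 9, a difference of 1.98 ± 0.09 (limma adjusted p = 6.97e-14). SLC25A12 had 11.75, 11.72, 11.7 and 11.77 at day 35 and 9.85, 9.7, 10.09 and 9.78 at day 9, a difference of 1.88. SLC25A29 had 10.35, 10.34, 10.34 and 10.47 at day 35 and 8.95, 8.68, 8.88 and 8.74 at day 9, a difference of 1.56. None of the 13 called members overlapped between the ages, a count without the share of all genes beside it. The median SE over the genes tested was 0.10, small beside the difference of 1 that a call needs. SLC25A21 (1.43), SLC25A13 (1.27) and SLC25A20 (1.16) were also higher.

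The lower members in retina were led by SLC25A47, with 5.03, 5.18, 4.88 and 4.85 at day 35 and 6.69, 7.09, 7.03 and 6.84 at day 9, a difference of −1.93 ± 0.12 (limma adjusted p = 3.93e-12). SLC25A1 (−1.34), SLC25A5 (−1.28), SLC25A46 (−1.10), SLC25A3 (−1.08), SLC25A6 (−1.08) and SLC25A32 (−1.01) followed. The ADP/ATP carriers SLC25A5 and SLC25A6 were thus lower, and the third, SLC25A4, was not called at 0.42. Under quantile normalization SLC25A6 (−0.77), SLC25A13 (0.95) and SLC25A20 (0.80) fell short of a difference of 1. In the first run SLC25A12 was at 9.85, 11.29, 11.56, 11.50 and 11.73 at days 9, 14, 21, 28 and 35. The lowest value of an array over all genes was 3.64 to 3.68 at day 9 and 3.31 to 3.37 at days 14 to 35, and the part of this difference between the groups was not tested. Of the 32 other mitochondrial transport genes 11 were higher and 7 lower. Red blood cells markers were higher for 2 of 3 genes and photoreceptor markers lower for 2 of 4 and higher for 1, and their part was not tested. SLC25A46 lay at −0.97 without replicate 1 and SLC25A32 at −0.93 without replicate 2. With probe sets averaged 5 members were called, and SLC25A38 (0.54), SLC25A20 (0.50), SLC25A13 (0.28), SLC25A46 (0.21), SLC25A1 (−0.21), SLC25A32 (−0.21), SLC25A6 (−0.27) and SLC25A3 (−0.80) were not.

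In brain of the second run 5 of 33 members were higher and 4 lower at day 49 than at day 1, against 13.9% and 11.3% of all genes. SLC25A22 had 10.65, 11.98, 11.49 and 12.21 at day 49 and 9.99, 8.77, 10.67 and 9.06 at day 1, a difference of 1.96 ± 0.42 (limma adjusted p = 0.000249) with overlap. SLC25A36 had 9.6, 10.66, 9.86 and 10.77 at day 49 and 8.33, 7.98, 8.57 and 8.46 at day 1, a difference of 1.89 without overlap. SLC25A12 had 9.23, 9.11, 10.01 and 9.81 at day 49 and 8.13, 8.39, 8.28 and 7.14 at day 1, a difference of 1.56 without overlap. SLC25A29 (1.56) and SLC25A24 (1.23) were also higher. The phosphate carrier SLC25A3 had 10.45, 10.89, 10.31 and 10.6 at day 49 and 12.01, 12.34, 12.66 and 12.52 at day 1 (−1.82), and SLC25A32 (−1.74), SLC25A6 (−1.26) and SLC25A1 (−1.22) were lower too. The brain neurons list was higher for 3 of 6 genes, and the 2 ages are of the 2 kinds of brain groups, with array means of 10.40 to 11.52 in the kind that holds day 49 and 8.41 to 9.27 in the kind that holds day 1. Its part in these differences was not tested. Without 1 replicate SLC25A1 (limma adjusted p = 0.0551 without replicate 2), SLC25A24 (0.0559 without replicate 1) and SLC25A6 (0.0658 without replicate 1) lost their calls. With probe sets averaged SLC25A24 (0.84), SLC25A36 (0.17), SLC25A6 (−0.27) and SLC25A32 (−0.09) were not called.

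In brain of the first run, days 42 and 0 are of 1 kind by the neuron markers. No member was higher and 4 of 32 were lower at day 42, against 4.27% and 6.26% of all genes. The groups differed in spread, however, which was wider in the younger one (median SD 0.44) than in the older one (0.10). Array minima over all genes ran from 3.35 to 3.62 in the younger group and from 3.62 to 3.66 in the older. What these differences contributed was not tested. SLC25A46 had 5.81, 5.93, 6.07 and 6.0 at day 42 and 7.13, 7.75, 7.51 and 8.59 at day 0, a difference of −1.79 ± 0.29 (limma adjusted p = 1.84e-05). SLC25A3 had 10.75, 11.1, 10.93 and 10.65 at day 42 and 12.12, 12.09, 12.55 and 12.35 at day 0, a difference of −1.42. These genes did not overlap between the ages. SLC25A47 (−1.32) and the dicarboxylate carrier SLC25A10 (−1.04) overlapped, SLC25A47 with 7.64, 5.32, 8.38 and 7.09 at day 0. Their calls were lost without replicate 1 or 3 for SLC25A47 (adjusted p = 0.0509 and 0.0582) and without replicate 2, 3 or 4 for SLC25A10 (−0.95 to −0.85), and SLC25A47 lay at −1.92 without replicate 2. SLC25A3 was the 1 member lower with age in both runs, 25% of the members called lower in either. Over all genes 28.5% of those lower in the first run were lower in the second, where they made up 15.6%. With probe sets averaged SLC25A3 lay at −0.76 in the first run and was not called there.

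**Figure D5:**
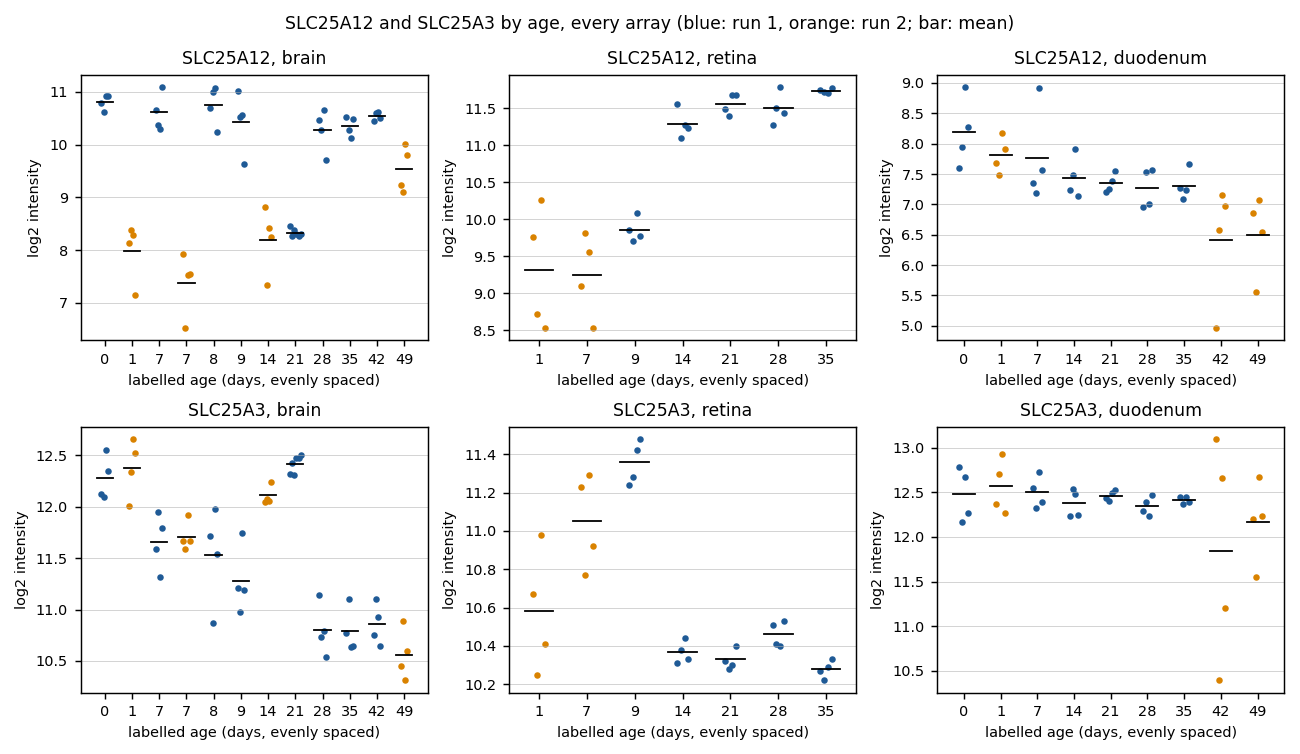
Log2 intensity of SLC25A12 (upper row) and SLC25A3 (lower row) in brain, retina and duodenum on every array (points) by labelled age, with group means as bars and the runs in 2 colours. Brain holds 2 levels of SLC25A12, 6.52 to 8.81 in the 4 groups with low neuron markers and 9.11 to 11.1 in the others. SLC25A12 in retina is higher and SLC25A3 lower from day 14 on than at day 9.

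In duodenum 1 of 32 members was higher and 3 lower at day 35 than at day 0 of the first run, against 10.2% and 10.3% of all genes. At day 49 against day 1 of the second run 2 were higher and 3 lower, against 8.55% and 7.21%. SLC25A4 had 7.69, 7.96, 7.55 and 7.8 at day 35 and 9.14, 9.1, 10.25 and 10.31 at day 0, a difference of −1.95 ± 0.27 (limma adjusted p = 2.9e-06). At day 49 it had 7.52, 8.1, 8.35 and 7.12, against 8.95, 9.38, 10.34 and 10.25 at day 1, a difference of −1.96 ± 0.42. The ages did not overlap in either run. The ornithine carrier SLC25A15 was lower in both (−1.69 and −1.23) and SLC25A26 higher in both (1.55 and 1.30). SLC25A32 was lower in the first run (−1.53, and −1.01 without replicate 3). SLC25A17 was higher (1.72) and SLC25A12 lower (−1.31) in the second.

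The duodenum results rested partly on single arrays of the second run. Without 1 replicate the adjusted p was 0.0811 and 0.12 for SLC25A12, 0.0617 and 0.149 for SLC25A15, and 0.0793 and 0.131 for SLC25A26. With probe sets averaged SLC25A4 lay at −0.39 and −0.66. Centred on array medians the first run had 2 higher and 3 lower members. Exocrine pancreas markers were lower for 3 of 4 genes in both runs, with array means of 6.12 to 6.30 at day 35 against 9.78 to 10.44 at day 0, and of 5.72 to 6.27 at day 49 against 9.60 to 9.80 at day 1. Their part in the carrier differences was not tested. Respiratory chain genes were higher for 7 and lower for 2 of 42 in the first run, and higher for 12 in the second.

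SLC25A12 differed between day 49 and day 1 of the second run by 1.55 in brain and by −1.31 in duodenum in a joint fit. The difference between the tissues was 2.87 ± 0.53 (limma interaction, adjusted p = 4.17e-05). SLC25A17 differed by −2.42, SLC25A4 by 2.38, SLC25A36 by 2.10 and SLC25A29 by 1.79 in the same test. Neuron markers in brain (10.40 to 11.52 in the kind of groups that holds day 49, 8.41 to 9.27 in that of day 1) and exocrine pancreas markers in duodenum (5.72 to 6.27 at day 49, 9.60 to 9.80 at day 1) moved between the same ages, and their part was not tested. The duodenum call of SLC25A12 was lost without replicate 2 or 4, and in brain of the first run SLC25A12 was not called at −0.27 (adjusted p = 0.405). SLC25A29 also differed between fat and lung from day 1 to day 42, with 2.84 in fat and −1.60 in lung and an interaction of 4.44 ± 0.76 (adjusted p = 4.79e-05). SLC25A22 differed by −3.31 in the same pair and by −3.77 between fat and jejunum. Tests of this kind were run for 6 pairs of tissues, each adjusted over all genes. The lung difference of SLC25A29 was not called by itself, and within lung groups SLC25A29 spread over several units, as given below. Adipocytes markers in fat moved between the same ages, and their part was not tested.

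In liver no member was higher and 6 of 33 were lower at day 49 than at day 0, against 4.76% and 7.94% of all genes. SLC25A4 had 9.0, 9.51, 9.27 and 10.26 at day 49 and 11.53, 11.89, 12.27 and 11.76 at day 0, a difference of −2.35 ± 0.19 (limma adjusted p = 1.91e-10). SLC25A12 had 6.97, 7.3, 6.32 and 7.24 at day 49 and 8.56, 7.64, 9.31 and 9.29 at day 0, a difference of −1.74. SLC25A47 had 6.4, 5.41, 6.38 and 6.38 at day 49 and 8.02, 7.96, 7.56 and 6.95 at day 0, a difference of −1.48. No array of day 49 reached day 0 for any of the 6, a count given without the share of all genes. SLC25A32 (−1.46), SLC25A29 (−1.39) and SLC25A3 (−1.08) completed them. The liver carrier SLC25A1 was not called, with 13.27, 13.33, 12.64 and 13.64 at day 49 and 13.06, 12.51, 12.99 and 13.22 at day 0. Lymphocyte markers were higher for 3 of 6 genes, 2 of 42 respiratory chain genes were lower, and their part was not tested. Without day 56 in the fit 6 members were called. The fit pools groups of unlike spread, with a median SD of 0.42 at days 0 and 49 and 0.11 to 0.13 at days 1, 3, 7 and 9. With array weights 314 of all genes were higher and 479 lower, against 605 and 1009 without. SLC25A29 then had a limma adjusted p of 0.0972 and SLC25A3 lay at −0.99. Without replicate 3 SLC25A3 lay at −0.94. With probe sets averaged SLC25A4 (−0.91), SLC25A32 (−0.91) and SLC25A3 (−0.46) were not called.

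Skeletal muscle changed in few members. In pectoralis at day 7 against day 0 of the first run 1 was higher and 1 lower, against 1.99% and 3.16% of all genes. SLC25A30 had 9.95, 10.2, 10.2 and 9.26 at day 7 and 7.23, 8.28, 8.01 and 6.82 at day 0, a difference of 2.32 ± 0.42 (limma adjusted p = 0.000656) without overlap. SLC25A5 had 9.41, 9.29, 8.76 and 8.47 at day 7 and 10.73, 11.17, 10.8 and 9.92 at day 0 (−1.67). The uncoupling-protein-like and the ADP/ATP carrier thus moved in opposite directions, and UCP3 was higher by 1.87. SLC25A5 lost its call without replicate 2 (adjusted p = 0.0624) or 3 (0.0587) and under quantile normalization (0.174). In gastrocnemius at day 28 against day 1 of the second run SLC25A25 alone was higher and none was lower, against 0.0662% and 0.149% of all genes. It had 7.52, 7.73, 7.82 and 7.94 at day 28 and 6.18, 5.94, 4.7 and 6.1 at day 1, a difference of 2.02 ± 0.34 (limma adjusted p = 0.00994), which did not pass without replicate 2, 3 or 4 (0.0675 to 0.136). The day 28 arrays are among those that match other muscle groups. In pectoralis at day 14 against day 1 no member of 32 was called, against 0.18% higher and 0.172% lower of all genes, and 2 had an unadjusted limma p under 0.05.

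In jejunum at day 42 against day 1 SLC25A1 was higher, the only member of 32, against 3.66% and 1.32% of all genes higher and lower. It had 9.97, 9.41, 9.16 and 10.57 at day 42 and 8.74, 7.74, 7.34 and 8.94 at day 1, a difference of 1.59 ± 0.44 (limma adjusted p = 0.0244) without overlap. The call did not hold without any 1 of the 4 replicates (adjusted p = 0.0566 to 0.105) or under quantile normalization (0.109). In whole intestine at day 14 against day 0 none of 29 tested members reached a difference of 1, against 2.4% and 1.4% of all genes, while 12 had an adjusted limma p under 0.05 and 14 an unadjusted one. The largest of these were SLC25A4 at −0.96 and SLC25A32 at −0.77.

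Limma called no member in the other 5 comparisons. In pineal gland at day 28 against day 1, 2 of 32 members had an unadjusted p under 0.05, and 0% of all genes were called in either direction. In lung at day 42 against day 1 it was 1 of 32, against 0% higher and 0.0489% lower of all genes. In spleen at day 14 against day 1 it was 4 of 32, against 0.488% and 0.422%, and in the growth plate at day 21 against day 1 it was 6 of 31, against 0% and 0%.

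Lung at day 28 against day 7 had 2 of 30 members with an unadjusted limma p under 0.05, none called, and 0% of all genes called in either direction. There the arrays of the same number went together. SLC25A29 had 7.95, 10.69, 11.76 and 7.85 at day 28 and 8.05, 10.77, 11.67 and 8.15 at day 7. Arrays 2 and 3 were high and arrays 1 and 4 low at both ages. At days 14 and 21 all 8 arrays lay between 7.65 and 8.31. In the second run SLC25A29 had 7.7, 8.15, 10.05 and 10.61 at day 1, 10.2, 10.24, 11.08 and 11.68 at day 35 and 7.58, 8.72, 6.11 and 7.71 at day 42. The spread of SLC25A29 within lung groups thus reached several units, and the difference between days 42 and 1 was −1.60 with an adjusted p of 0.307.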

How the data were processed

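The arrays were Affymetrix Chicken Genome arrays, and the deposited table gives log2 intensities per probe set, made by the authors with Affymetrix Expression Console 1.1 per the submitters' processing notes. The sources used here do not give the normalization, and the values were used as deposited. Of 38535 probe sets, 27168 had 1 symbol in the platform annotation, 177 several and 11094 none, and 96 were controls. Groups follow the title, source and sex labels, and a run is a stretch of sample numbers, which the labels do not call a batch. Members and gene lists were chosen with earlier results of these data known.

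Limma 3.58.1 (R 4.3.3) fitted 1 mean per group, with moderated tests and Benjamini-Hochberg adjustment over all genes, without dim genes, those that in no group averaged at least the 25th percentile of all values fitted. Genes named are all called members, with array values for those of largest difference. Alternatives were quantile normalization, median centring, other dim filters, averaged probe sets, array weights, a replicate block, other fits and leaving out replicates. Deviations of same-number arrays correlated above 0.1 in every pair in lung at days 28 and 7 (r = 0.45 to 0.72, other pairs −0.64 to 0.64), where the blocked count was 0. Single same-number pairs elsewhere reached 0.58, and the first arrays of the widely spread groups of the first run shared deviations (median r = 0.51). The fits were tested on simulated data first. Python 3.11.15, pandas 2.3.3, numpy 2.4.6 and matplotlib 3.10.9 were used.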

Additional observations from a re-analysis of the deposited data

Results flagged for a closer look

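Single arrays that stood far from the other 3 of their group were found in 9 of 238 member values tested, where chance gives about 1 in 20. In abdominal fat these were SLC25A22 at day 49 (9.02), SLC25A29 at day 10 (6.67), SLC25A3 at day 10 (12.48) and SLC25A4 at day 7 (10.53). In retina they were SLC25A13 at day 9 (8.87) and SLC25A29 at day 35 (10.47). The others were SLC25A10 in brain at day 42 (4.77), SLC25A47 in liver at day 49 (5.41) and SLC25A25 in gastrocnemius at day 1 (4.70). SLC25A12 differed by 1.55 between day 49 and day 1 in brain and by −1.31 in duodenum, and the limma interaction was 2.87 ± 0.53. The 2 brain ages are of the 2 kinds of brain groups, with neuron markers at 10.40 to 11.52 in the kind of day 49 and 8.41 to 9.27 in that of day 1. In duodenum the exocrine pancreas markers were at 5.72 to 6.27 at day 49 and 9.60 to 9.80 at day 1. The part of these markers was not tested.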

How the results depend on the processing

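Of 2029 alternatives computed for the 140 calls of single members, 1851 kept direction and call, 174 kept the direction and lost the call, and 4 reversed. These totals, and those of counts below, include alternatives that could hardly change a call. Other dim filters, labelled sex as a covariate and the replicate block left the count of called members in every organ class unchanged. Averaging could not change members with 1 probe set. Averaged probe sets accounted for 62 of the lost calls and quantile normalization for 25, and 48 calls were kept under every alternative run for them. With the second set of brain arrays SLC25A12 lay at −1.08 and SLC25A22 at −0.07 in brain against the other classes. With averaged probe sets SLC25A37 lay at 0.01 in the growth plate class and SLC25A46 at 0.21 in retina at day 35 against day 9. The causes were not tested.

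Of 434 alternative counts of called, restricted, general or graded members 399 lay within 1.5 times the main count. A main count of 0 was matched only by 0. With averaged probe sets 4 members were called in the liver class, 2 in pineal gland, 5 in intestine, 3 in retina, 0 in spleen and 3 in the growth plate. Among ages they were 9 in fat at day 49, 6 in fat at day 42, 0 in gastrocnemius, 2 in duodenum at day 35, 3 in duodenum at day 49, 2 in jejunum, 5 in brain at day 49 and 5 in retina. Quantile normalization left 1 in pectoralis at day 7 and 0 in jejunum. In spleen 1 was called with median centring, array weights or the second set of brain arrays, and 5 with groups of the first run only. Leaving out 1 replicate gave 7 to 10 in brain, 1 to 4 in spleen, 1 to 2 in pectoralis at day 7, 0 to 1 in gastrocnemius, 3 to 4 in duodenum at day 49, 0 in jejunum and 0 to 1 in whole intestine.

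A fit with the replicate number as a block left the count of called members within 1.5 times the count without it in every comparison, with 7 in liver, 15 and 16 in fat and 13 in retina. The numbers are not stated to mark shared birds. The number of arrays, and signal over background for the dim members, limit what could be called.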
